A study of Mus musculus with 24 samples.

Results

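The common gamma chain family was followed through 8 genes in 24 mouse tumors, as 6 receptor chains and 2 ligands. The genes were taken by name, as the rows of the deposited count table whose Ensembl identifiers carry the symbols Il2rb, Il2rg, Il15, Il15ra, Il7, Il7r, Il4ra and Il21r in GENCODE M21. They are 8 of 55401 rows, of which 55141 are in that annotation. Male C57/BL6 mice aged 8 to 10 weeks carried tumors of TC2Ras, a mouse prostate adenocarcinoma line. Subcutaneous (SC) tumors grew from 300000 TC2Ras cells in each flank and were taken at 1 week, 2 after the empty vector (control) and 2 after the IL-27 vector. Intratibial tumors grew from 100000 TC2Ras-Luc cells in each tibia. They came from mice given empty vector and PvP (control), IL-27 vector and PvP (IL-27), empty vector and cabozantinib (cabo) or IL-27 vector and cabozantinib (IL-27+cabo), with 3 tumors per group on day 14 and 2 per group at the end of the study (EOS). Cabozantinib is a tyrosine kinase inhibitor given here at 30 mg/kg by mouth, PvP is its carrier, and IL-27 is a heterodimeric cytokine. All mice, controls included, received plasmid in a muscle with ultrasound, so the plasmid was delivered to muscle and not to the tumor. The intratibial cells are TC2Ras cells that also carry luciferase, so the sites differ in the line as well, dosing had ended before the EOS tumors were taken, and the labels do not give the day of each EOS tumor or say whether the SC tumors came from separate mice. The p-values therefore measure the spread between these tumors.

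Cytokines of this family signal through the shared gamma chain, encoded by Il2rg, paired with a private chain. Il2rb joins it in the receptors for IL-2 and IL-15, Il7r for IL-7, Il4ra for IL-4 and Il21r for IL-21, and the receptors pass the signal on through the kinases Jak1 and Jak3 to STAT proteins. IL-15 is presented on Il15ra by myeloid and other cells to NK cells and T cells that carry Il2rb, IL-7 is made mostly by stromal cells and keeps lymphocytes alive, and Il4ra also serves IL-13 and is abundant on macrophages.

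Libraries held between 63729005 and 83782258 counts. Replicates correlated across genes at r of at least 0.946 except in the day 14 IL-27+cabo group, where the lowest r was 0.908 and the tumor of mouse 20 stood apart. Of the markers listed for the injected line, the epithelial keratin gene Krt8 was between 2.04 and 67.3 CPM (counts scaled to a common library size) in the SC tumors and between 14.3 and 261 CPM in the intratibial tumors, and Hoxb13 was at 0 in all 24 tumors. SC and intratibial tumors were normalized apart, and no comparison between sites was made.

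All 8 genes were detected in all 24 tumors and passed the expression filter in all 15 comparisons. Per kilobase of exon (RPKM, computed here from CPM), the receptor chains Il2rg and Il4ra stood at the top over the 20 intratibial tumors, with medians of 9.43 and 8.65 RPKM. Their ranges, 2.39 to 16 RPKM and 3.70 to 16.9 RPKM, overlapped almost wholly. Il2rb followed at a median of 2.25 RPKM and Il21r at 1.63. Il15, Il15ra and Il7r had medians of 0.905, 0.828 and 0.788 RPKM, an order that their spread does not separate. Il7 was lowest at 0.109 RPKM, with a range of 0.0354 to 0.306, so that it stayed under the lowest tumor of Il2rb, Il2rg, Il4ra, Il21r and Il15, and overlapped with Il15ra and Il7r only at its top. In the 4 SC tumors Il2rg and Il4ra again led at medians of 18.6 and 10.3 RPKM, and Il7 was again lowest at 0.114 RPKM.

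**Figure D1:**
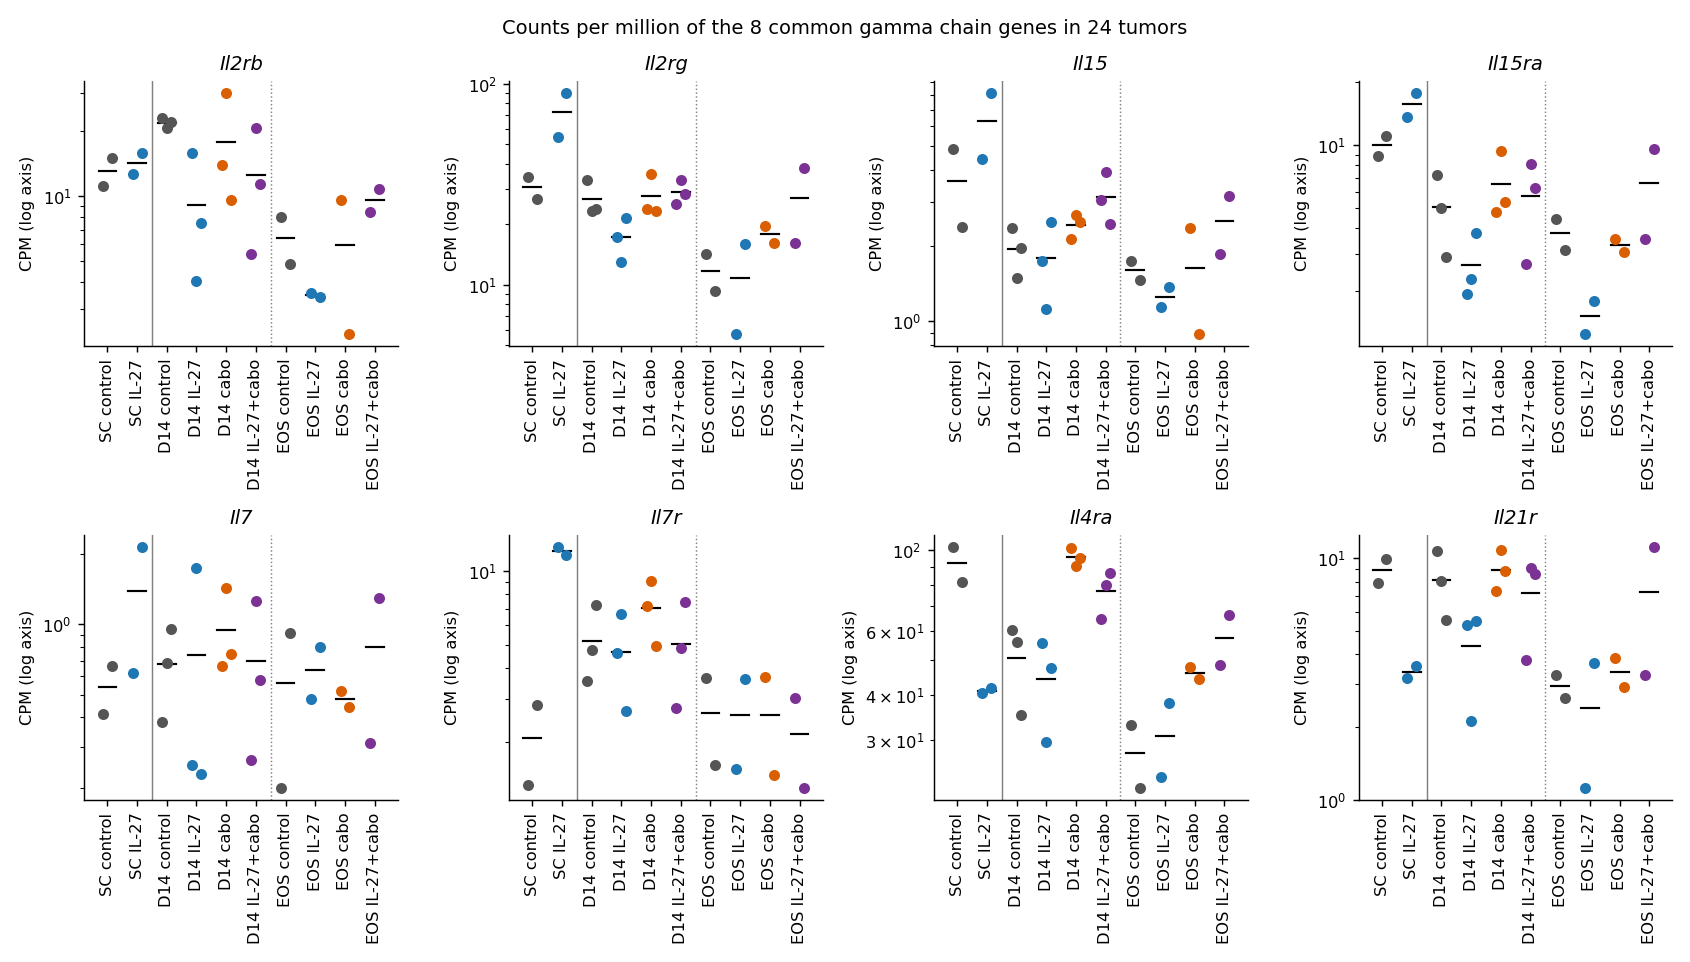
Level in CPM of each of the 8 genes (log axis, a separate scale in each panel) in every tumor, by group, with points for tumors and a bar for the group mean. A solid line parts the SC groups, which were normalized apart, from the intratibial groups, and a dotted line parts day 14 from EOS. Il4ra lies highest in the 3 day 14 cabo tumors among intratibial tumors, and Il7r is higher in both SC IL-27 tumors than in both SC controls.

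On GRCm38, the chromosomes and spans were as follows, from the start to the end of the gene. Il2rb lies on chromosome 15 (78479256 to 78495271, minus strand), as does Il7r (9505788 to 9530176, minus strand). Il2rg is on chromosome X (101264378 to 101268255, minus strand), Il15 on chromosome 8 (82331632 to 82403222, minus strand), Il15ra on chromosome 2 (11705290 to 11734317, plus strand) and Il7 on chromosome 3 (7569994 to 7613760, minus strand). Il4ra (125552120 to 125579474) and Il21r (125603429 to 125633570) are neighbors on the plus strand of chromosome 7, with 23954 bases between them. Exons of Il2rg share 728 bases with Gm20489 on the same strand, those of Il4ra share 571 bases with Gm44876 on the other strand, and those of Il7 share 105 bases with Gm16685 on the other strand. How the counting treated shared bases is not given in the sources used here.

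Across the 20 intratibial tumors, Il2rg and Il21r were the most alike of the 28 pairs of these genes, with Pearson's r of 0.928 for log2 CPM and Spearman's rho of 0.923. These and the following r values describe tumors that share site, library name prefix and treatment groups. Il4ra had an r of 0.824 with Il21r and 0.819 with Il2rg, and Il15ra had an r of 0.845 with Il21r. Il2rg, Il21r, Il15ra and Il4ra also had an r of 0.967, 0.948, 0.857 and 0.829 with the mean level of 8 genes expressed by all leukocytes. In bulk tumors fewer cells of a type and less RNA per cell cannot be told apart. Il2rb was nearest to the NK cell list (r of 0.831) and had an r of 0.714 with the T cell list. Il7 differed from the rest, with r values between 0.0599 and 0.294 with the other 7 genes.

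**Figure D2:**
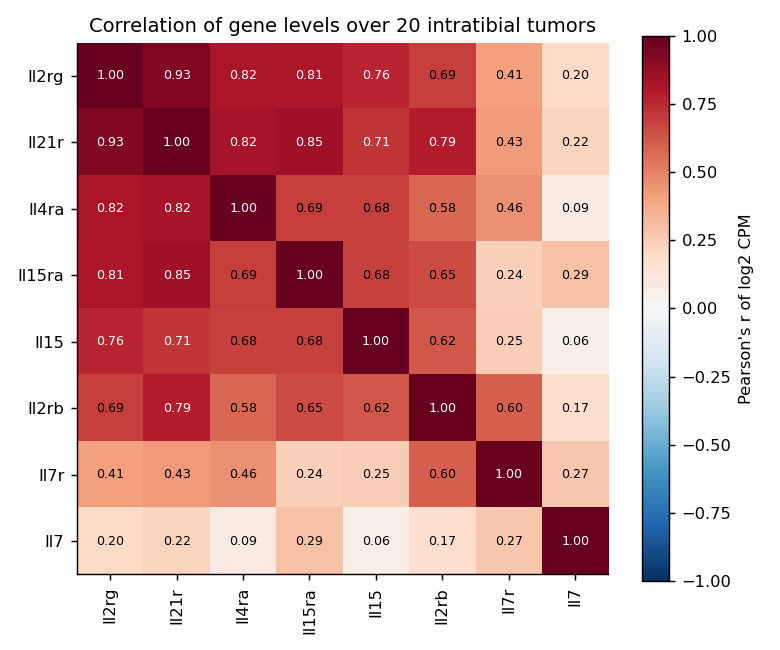
Pearson's r of log2 CPM for each pair of the 8 genes over the 20 intratibial tumors, as a colored grid with the value in each cell. Il2rg, Il21r, Il4ra and Il15ra hold the upper left corner, with r from 0.688 to 0.928 between them, and the row of Il7 stays at or below 0.29.

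The genes most like each member, by r over the same 20 tumors among 21563 genes, were the following. Il2rb was followed most closely by Sh2d2a (r of 0.970), an adaptor of T cells and NK cells, and then by Il2ra (0.914), the alpha chain of the same IL-2 receptor, and Ms4a4b (0.895). Il2rg was nearest to Sp110 (0.960), Mndal (0.948) and Plbd1 (0.943), and Il21r to Ikzf1 (0.974), a lymphoid transcription factor, Sash3 (0.954) and Tlr1 (0.946). Il4ra was nearest to B3gnt7 (0.945), Fcgr2b (0.944) and Hk3 (0.932), of which Fcgr2b encodes the inhibitory Fc receptor. Il15ra was nearest to Pik3ap1 (0.960), Angpt1 (0.928) and Naip2 (0.920), and its ligand Il15 to Il24 (0.885), Tmem171 (0.877) and 5430427O19Rik (0.873). Il7r was nearest to Dram1 (0.799), Il1rn (0.792) and Tcp11l2 (0.782), and Il7 to Thbs3 (0.835), Eda2r (0.777) and Rrp12 (0.736).

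The promoters of Il2rg and Il21r are shown because this pair varied together most closely. Each is the 250 bases before the start of the gene in RefSeq (GRCm38.p6), which for Il2rg is chrX:101268256-101268505 on the minus strand and for Il21r chr7:125603179-125603428 on the plus strand, 5′ to 3′. Capitals mark matches, on either strand, to the Runx motif TGTGGT and to an NF-kB motif, GGG followed after 5 bases by CC.
Il2rg: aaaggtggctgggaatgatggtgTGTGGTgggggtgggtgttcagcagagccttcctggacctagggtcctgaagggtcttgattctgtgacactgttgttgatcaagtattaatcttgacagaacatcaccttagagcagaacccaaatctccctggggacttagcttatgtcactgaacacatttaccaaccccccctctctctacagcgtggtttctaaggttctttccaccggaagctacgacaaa
Il21r: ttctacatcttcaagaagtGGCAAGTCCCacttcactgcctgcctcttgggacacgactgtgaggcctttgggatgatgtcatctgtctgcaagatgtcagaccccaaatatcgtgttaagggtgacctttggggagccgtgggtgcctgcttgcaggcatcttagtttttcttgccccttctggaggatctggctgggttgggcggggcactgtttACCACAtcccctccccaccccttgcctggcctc

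Both hold 1 match to the Runx motif, at positions -227 to -222 from the start in Il2rg and, on the opposite strand, at -33 to -28 in Il21r. Of 32851 promoters of the same length, 14.0% hold a match to it. The NF-kB match of Il21r lies at -231 to -222 on the opposite strand, and 45.8% of promoters hold one. Neither window holds the STAT motifs, TTC and GAA with 3 or with 4 bases between them, or the interferon response motif, GAAA and GAAA with 2 bases between them, on either strand. These are found in 7.02%, 5.85% and 2.98% of promoters. The table held promoters for 5 of the 8 genes, without Il2rb, Il15 and Il7.

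The SC tumors address how IL-27 alone changed these genes at 1 week. The IL-7 receptor chain Il7r rose and the IL-4 receptor chain Il4ra fell, but with offsets for GC content and length both calls were lost and Il4ra changed direction (log2 fold changes of 1.32 and 0.46). Il7r was at 1.34 and 2.83 CPM in the control tumors and at 12.5 and 11.6 CPM in the IL-27 tumors. The 2 groups lie far apart, with a log2 fold change of 2.53 ± 0.52 (SE, n = 2 per group), or 5.79-fold, and an edgeR adjusted p of 0.0162. Il4ra was at 102 and 81.6 CPM in the controls and at 40.3 and 41.9 CPM with IL-27. Its values did not overlap either, and it was 2.23-fold lower (log2 fold change of -1.16 ± 0.31, edgeR adjusted p of 0.042). Without control tumor 1 neither call held (edgeR adjusted p of 0.0546 for Il7r and 0.0843 for Il4ra), and that of Il4ra was also lost without either IL-27 tumor (0.294 and 0.283). Without control tumor 2 the log2 fold change of Il7r was 3.12. These were 2 of the 8 genes, 1 in each direction, while 20% of the 19360 genes tested passed at an adjusted p under 0.05, 682 of them upward and 3198 downward.

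Il2rg and Il21r missed the adjusted threshold with groups that did not overlap. Il2rg, the shared chain, was at 34.6 and 26.7 CPM in controls and 54.3 and 90.1 CPM with IL-27, a log2 fold change of 1.24 ± 0.37 (edgeR adjusted p of 0.0601). Il21r was at 7.91 and 9.89 CPM in controls and 3.20 and 3.56 CPM with IL-27, a log2 fold change of -1.39 ± 0.43 (edgeR adjusted p of 0.0652). With offsets for GC content and length the values were 0.68 for Il2rg and -0.27 for Il21r (edgeR adjusted p of 0.215 and 0.745). Both passed with DESeq2 (adjusted p of 0.00808 and 0.0160), which called 4 of the 8 genes and 31.9% of all genes. At an unadjusted p under 0.05 in edgeR the same 4 of 8 passed, against 35.4% of all genes.

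The 2 ligands and the other 2 chains did not pass. Il15 was at 4.88 and 2.38 CPM in controls and 4.46 and 8.14 CPM with IL-27, and these overlapped (log2 fold change of 0.80 ± 0.57). Il15ra, which presents it, was at 8.88 and 11.1 CPM in controls and 13.7 and 17.8 CPM with IL-27, without overlap (0.65 ± 0.38). Il7 was at 0.414 and 0.666 CPM in controls and 0.621 and 2.14 CPM with IL-27 (1.35 ± 0.82), and its higher mean came from 1 tumor. Il2rb was at 11.2 and 15 CPM in controls and 12.7 and 15.9 CPM with IL-27 (0.13 ± 0.38). The median of the 8 log2 fold changes was 0.72, and that of all genes tested was 0.04.

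The fold changes of the 8 genes in the SC tumors went with the GC content of the exons in their longest transcripts. Il7 and Il7r, at 39.0% and 40.5% GC, had the highest fold changes, and Il21r and Il4ra, at 54.8% and 55.8%, the lowest. With offsets that remove a smooth dependence on GC content and exon length from every library, neither call remained. The log2 fold change of Il7r became 1.32 (edgeR adjusted p of 0.0981) and that of Il4ra turned to 0.46 (edgeR adjusted p of 0.285), with a median over all genes of -0.31. The direction for Il4ra in the SC tumors therefore depended on this setting.

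**Figure D3:**
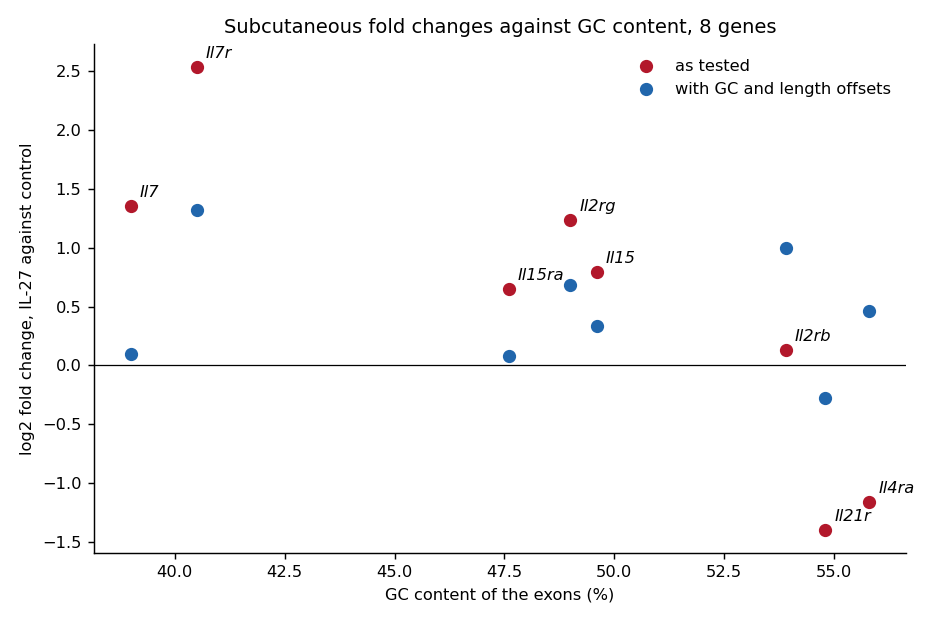
Log2 fold change of IL-27 against control in the SC tumors (vertical axis) against GC content in percent (horizontal axis) for the 8 genes, as tested and with offsets for GC content and length. GC content is that of the exons in the longest transcript of each gene. With the offsets the fold change of Il7r drops from 2.53 to 1.32 and that of Il4ra moves from -1.16 to 0.46.

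Other cell types also differed between the SC groups. The summed level of 10 neutrophil and marrow granule genes was 1.79 to 3.16 CPM in controls, with 4 of the genes at 0 in each, and 39.1 to 40.6 CPM with IL-27, with at most 1 at 0. The sum of 18 skeletal muscle genes was 55.6 to 105 CPM in controls and 468 to 1276 CPM with IL-27, and that of 10 NK cell genes 33.7 to 34.9 CPM and 68.3 to 114 CPM. The 8 genes listed for the injected line had a mean log2 CPM of 0.60 and 0.35 in controls and -0.43 and -0.66 with IL-27, and 2 of the 6 tested fell. The 9 macrophage genes summed to 1276 to 1517 CPM in controls and 1026 to 1466 CPM with IL-27, and 4 of them fell and none rose. The 8 leukocyte genes, Ptprc among them, summed to 787 to 795 CPM in controls and 1029 to 1472 CPM with IL-27, and 2 of them rose and 2 fell. The 10 B cell genes summed to 14.8 to 18.8 CPM and 22.6 to 54.4 CPM. Relative to Ptprc, which encodes the leukocyte antigen CD45, Il4ra was at a log2 difference of 0.09 and 1.77 in controls and -2.41 and -2.39 with IL-27. Il7r was at -4.75 and -4.45 in controls and between -4.25 and -4.07 with IL-27, which do not overlap, and Il2rg was at -1.52 and 0.21 in controls and between -1.96 and -1.30 with IL-27, which overlap. These differences rest on Ptprc alone and were not computed with the GC offsets. The part of these cell types in the fold changes of the 8 genes was not tested.

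A further list of 11 genes holds others of the family and also genes beside it, such as Il13 and its receptor chains. Of these, 6 were tested in the SC tumors, 4 of them rose and none fell, against 20% of all genes called, 682 of 19360 upward. Il2ra rose 3.80-fold (edgeR adjusted p of 0.0335), Il13ra1, the partner of Il4ra in the receptor for IL-13, rose 3.26-fold (0.0135), and Il13ra2, a decoy receptor for IL-13, rose 22-fold (0.00577). Il9r was at 0 counts in both controls and at 59 and 23 counts with IL-27, without overlap. Il2 and Il9 were at 0 counts in all 24 tumors, which allows up to 3 counts per library by counting error alone where each count is 1 read, and Il13 was above 0 only in 2 of them.

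Of the 6 JAK and STAT transducers, 3 fell and none rose in the SC tumors, against 20% of all genes called in either direction, namely Jak3 (log2 fold change of -3.05, but -0.34 with the GC offsets), Stat5a (-1.45, but 0.74 with the GC offsets) and Stat5b (-1.94). Of 15 genes induced by STAT5 or STAT6, 4 rose, which were Socs2 (1.78), Il18r1 (2.23), Retnla (4.06) and Chil3 (2.33), and Socs3 fell (-1.94, but 0.35 with the GC offsets). Of 10 genes listed as inducers of Il15 and Il15ra, Irf3 (-1.90, but -0.14 with the GC offsets) and Rela (-4.12, or -1.71 with them) fell, a share equal to that of all genes. With the offsets 4 of these 14 genes still passed, which were Il9r, Il13ra2, Stat5b and Rela, and 10 did not, among them Il2ra (1.05), Il13ra1 (0.44), Socs2 (0.96), Il18r1 (1.29), Chil3 (1.42) and Retnla (3.45). Rela alone of the 14 kept its call with each SC tumor left out in turn. Without IL-27 tumor 2 Retnla was at 1.48 (edgeR adjusted p of 0.398), and Jak3 was at -2.43 without IL-27 tumor 1 and -4.2 without IL-27 tumor 2. Il13ra2 was at 3.85 and Il9r lost its call (adjusted p of 0.180) without IL-27 tumor 1.

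In the intratibial tumors on day 14, IL-27 alone was compared with control. Il2rb, Il2rg and Il21r were lower in all 3 IL-27 tumors than in all 3 controls. Il2rb was at 23.1, 20.7 and 22.1 CPM in the controls and at 15.9 (mouse 4), 4.07 (mouse 6) and 7.49 CPM (mouse 8) with IL-27, a log2 fold change of -1.25 ± 0.43 (n = 3, edgeR unadjusted p of 0.0204). With 1 tumor left out in turn its log2 fold change ran from -1.91 to -0.90. Il2rg was at 33.4, 23.4 and 23.9 CPM in the controls and at 17.4, 13 and 21.6 CPM with IL-27 (-0.62 ± 0.23, edgeR unadjusted p of 0.0291). Neither passed the adjustment, as 0.0% of 18519 genes did (0 genes by edgeR, and 2 genes or 0.0108% by DESeq2), and 2.76% of genes had an unadjusted p under 0.05. In DESeq2 none of the 8 passed the adjustment. Il21r was at 5.31, 2.12 and 5.51 CPM with IL-27, just under the lowest control at 5.57 CPM (-0.90 ± 0.40). The log2 fold changes of the other 5 genes lay between -0.90 and 0.15. The 8 leukocyte genes summed to 384 to 532 CPM with IL-27 and 581 to 856 CPM in controls, 5 of them lower at an unadjusted p under 0.05, and the 10 NK cell genes to 15.7 to 31.6 CPM and 34.9 to 53.3 CPM, 2 of them lower at that threshold. Their part in the levels of Il2rb, Il2rg and Il21r was not tested. The day 14 comparisons with control share the same 3 control tumors.

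Cabo on day 14 went with higher Il4ra. Il4ra was at 60.2, 55.8 and 35.1 CPM in controls and at 101, 90.4 and 95 CPM with cabo, so that the lowest cabo tumor was above the highest control. The log2 fold change was 0.90 ± 0.18, or 1.87-fold, with an unadjusted p of 0.00119, an edgeR adjusted p of 0.0560 and a DESeq2 adjusted p of 9.227e-05. None of the 8 genes passed in edgeR, against 1.89% of 18627 genes, 1 passed with DESeq2, against 8.04% of genes, and 1 had an unadjusted p under 0.05 in edgeR, against 18.9% of genes. With 1 tumor left out in turn the log2 fold change of Il4ra ran from 0.70 to 1.04. Its edgeR adjusted p then ran from 0.0325, without the control tumor of mouse 7, to 0.194. Under the other settings the log2 fold change ran from 0.85 to 1.02, and the highest edgeR adjusted p was 0.766. Relative to Ptprc, Il4ra was at a log2 difference of 0.21 to 1.06 with cabo and of -0.54 to -0.03 in controls, but the day 14 IL-27 tumors, without cabo, were at 0.14 to 0.69. The other 7 genes had log2 fold changes from -0.32 to 0.46.

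Skeletal muscle genes were also higher in these cabo tumors, with a summed level of 1383 to 2122 CPM against 46.5 to 216 CPM in controls, and T cell genes were lower, at 37.8 to 49.1 CPM against 89.3 to 102 CPM, with none of the 12 T cell genes at 0. Endothelial genes summed to 129 to 144 CPM with cabo and 177 to 291 CPM in controls, and 3 of 8 fell. Leukocyte genes summed to 696 to 779 CPM with cabo and 581 to 856 CPM in controls, which overlap. With the muscle score as a covariate the log2 fold change of Il4ra was 1.02, in a fit in which 0 of 18627 genes passed. The muscle sums of cabo and control tumors do not overlap, so that fit cannot cleanly part muscle from treatment. Over the 20 intratibial tumors Il4ra had an r of 0.703 with the mean level of the muscle genes. The part of the T cell and endothelial genes in the level of Il4ra was not tested, and that of the muscle genes cannot be told apart from treatment.

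The cytokine Il21, the ligand of Il21r, fell with cabo on day 14. It had 178, 200 and 196 counts in the controls, 24, 8 and 13 with cabo, and 0 in all 3 IL-27+cabo tumors. It fell with cabo by 3.58 on the log2 scale (SE 0.42, edgeR adjusted p of 0.00875). Against the 0 counts with IL-27+cabo its edgeR adjusted p was 0.0526. With IL-27 alone the tumor of mouse 4 had 234 counts and those of mice 6 and 8 had 17 and 5. Il21r was at 10.7, 8.07 and 5.57 CPM in controls and at 7.31, 10.8 and 8.86 CPM with cabo, which overlap (log2 fold change of 0.13 ± 0.25). The call for Il21 with cabo was lost without the cabo tumor of mouse 27 (edgeR adjusted p of 0.0614), when all 20 intratibial tumors were fitted together (edgeR adjusted p of 0.500) and with the muscle score as a covariate (0.504), where the log2 fold changes were -3.56 and -3.51. In the fit with the covariate 0 genes passed.

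The T cell gene Cd3e split the tumors in the same way as Il21. It had 783, 837 and 732 counts in the 3 controls and 649 counts in the IL-27 tumor of mouse 4, and between 75 and 216 counts in the other 8 day 14 tumors. Il2rb was also highest among the IL-27 tumors in mouse 4. In the cabo tumors, however, Il2rb reached 30.1 CPM in mouse 25 at 207 counts of Cd3e, beside 14.0 and 9.63 CPM in mice 21 and 27, and the NK cell genes summed to 64.2 CPM in mouse 25 and to 43.5 and 13.9 CPM in mice 21 and 27.

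**Figure D4:**
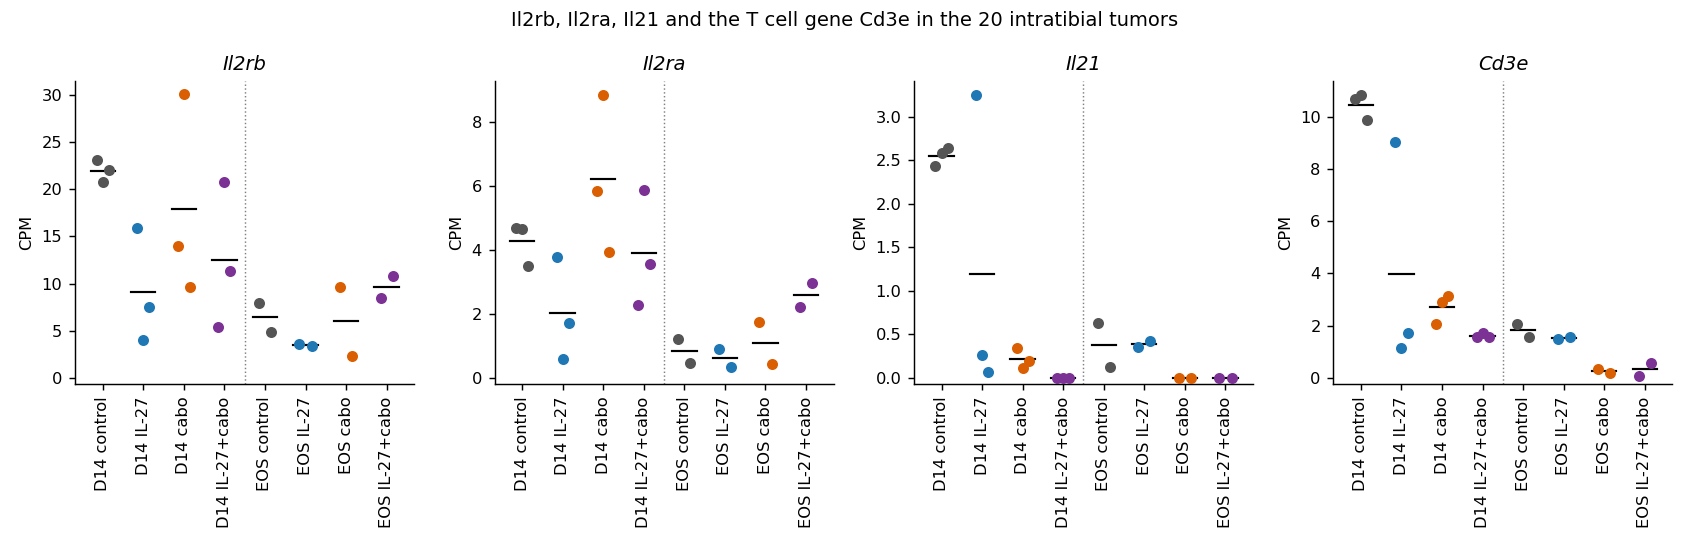
Level in CPM of Il2rb, Il2ra, Il21 and Cd3e in each of the 20 intratibial tumors by group, with a bar for the group mean and a dotted line between day 14 and EOS. Il21 and Cd3e are high in the 3 day 14 controls and in 1 day 14 IL-27 tumor, while Il2rb and Il2ra spread widely within the day 14 cabo group.

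Of the 8 genes tested from the further list, which holds genes beside the family as well, Il13ra1 rose and Il21 fell with cabo on day 14. Il13ra1 was at 69.3, 82.0 and 67.9 CPM in controls and 112, 106 and 116 CPM with cabo (1.51-fold, edgeR adjusted p of 0.0295). Of the 14 STAT5 and STAT6 response genes tested, 1 rose and none fell, which was Ccl22, a chemokine of dendritic cells and macrophages (2.48-fold, 0.0453). The share of all genes called was 1.89%. Both calls were lost in the fit of all 20 intratibial tumors (log2 fold changes of 0.61 and 1.33) and with the muscle score as a covariate (0.29 and 2.29), and each was lost on leaving out 5 of the 6 tumors in turn. No JAK or STAT transducer passed.

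With IL-27+cabo on day 14, Il4ra was at 64.8, 80.0 and 86.2 CPM, all above the highest control (log2 fold change of 0.63 ± 0.26, edgeR unadjusted p of 0.0492). It was the 1 gene of the 8 with an unadjusted p under 0.05, against 6.2% of genes, and none passed the adjustment, as 0.064% of 18750 genes did, nor did any with DESeq2, against 2.58% of genes. Il2rb was at 5.39 (mouse 20), 20.7 and 11.4 CPM, which is at or under the lowest control (-0.81 ± 0.45). Il15 was at 3.05, 3.94 and 2.44 CPM, against 2.35, 1.49 and 1.97 CPM in controls, all above them (0.71 ± 0.36), but it passed neither threshold. Skeletal muscle genes summed to 1752 to 5471 CPM with IL-27+cabo and 46.5 to 216 CPM in controls, 18 of 18 higher at an unadjusted p under 0.05. T cell genes summed to 35.6 to 44.7 CPM and 89.3 to 102 CPM, 9 of 12 lower at that threshold. Endothelial genes summed to 76.9 to 129 CPM and 177 to 291 CPM, 7 of 8 lower. Their part in the levels of Il4ra, Il2rb and Il15 was not tested.

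Adding cabo to IL-27 on day 14 gave log2 fold changes of 0.73 ± 0.29 for Il2rg (edgeR unadjusted p of 0.0375) and 0.78 ± 0.30 for Il4ra (0.0343), 2 of 8 genes against 4.85% of all genes. None passed the adjustment with edgeR or DESeq2, as 0.0% of 18570 genes did in edgeR and 0.899% in DESeq2. Leukocyte genes summed to 384 to 532 CPM with IL-27 and 665 to 747 CPM with IL-27+cabo. Macrophage genes summed to 405 to 880 CPM and 962 to 1633 CPM, 2 of 9 higher at an unadjusted p under 0.05. Endothelial genes summed to 170 to 216 CPM and 76.9 to 129 CPM, 6 of 8 lower at that threshold. Their part in the levels of Il2rg and Il4ra was not tested. Adding IL-27 to cabo gave log2 fold changes between -0.50 and 0.41 for the 8 genes, with none at an unadjusted p under 0.05, against 1.92% of genes, and 0.0% of 18662 genes passed the adjustment (0.0268% in DESeq2, none of the 8). The interaction of IL-27 and cabo was tested directly. For the 8 genes it lay between -0.56 and 0.73 on the log2 scale, and none had an unadjusted p under 0.05 in edgeR, against 1.88% of genes (0.0% of 19899 after adjustment). DESeq2 called none of the 8, against 0.0201% of genes, and its lowest unadjusted p was 0.0473, for Il2rg. The largest of these log2 values, 0.73 ± 0.79 for Il2rb, had an SE above its own size.

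EOS tumors were then compared with day 14 tumors within each treatment, which sets no tumor in more than 1 of these 4 comparisons. In cabo tumors, Il4ra and Il21r fell. Il4ra went from 101, 90.4 and 95 CPM on day 14 to 47.7 and 44.2 CPM at EOS, a 2.05-fold difference (log2 fold change of -1.03 ± 0.08, n = 3 and 2, edgeR adjusted p of 0.00426). Il21r went from 7.31, 10.8 and 8.86 CPM to 3.85 and 2.93 CPM (-1.38 ± 0.23, 2.60-fold, edgeR adjusted p of 0.040). In both genes the EOS tumors lay clear of the day 14 tumors. Relative to Ptprc, Il4ra was at a log2 difference of 0.21 to 1.06 on day 14 and 0.24 to 0.76 at EOS, which overlap, and Il21r at -2.86 to -2.49 and then -3.38 to -3.14. They were 2 of the 8 genes, against 2.09% of 19144 genes. All 8 genes had a log2 fold change under 0, and 5 had an unadjusted p under 0.05, against 17.6% of genes.

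The other 3 of these were Il15ra (-0.95 ± 0.32), Il2rg (-0.60 ± 0.21) and Il7r (-1.42 ± 0.43). With 1 tumor left out in turn the log2 fold change of Il7r ran from -2.23 to -0.91. Il15ra was at 4.8, 9.40 and 5.36 CPM on day 14 and 3.57 and 3.09 CPM at EOS, and Il7r at 7.19, 9.04 and 4.94 CPM and then 3.70 and 1.47 CPM, without overlap in either gene. Il2rg was at 23.9, 35.7 and 23.4 CPM on day 14 and at 19.7 and 16.2 CPM at EOS, again lower in both EOS tumors. Il2rb ranged from 9.63 to 30.1 CPM on day 14 and was at 9.66 and 2.30 CPM at EOS, which overlap (-1.56 ± 0.69). DESeq2 called Il7r as well (adjusted p of 0.0130), or 3 of the 8 against 9.08% of genes. Both edgeR calls were lost when all 20 intratibial tumors shared 1 fit (adjusted p of 0.369 for Il4ra and 0.969 for Il21r) and with the muscle score as a covariate (0.0580 and 0.332). The log2 fold changes in these fits were -1.06 and -0.99 for Il4ra and -1.40 and -1.02 for Il21r, and the genes called overall went from 400 to 53 and 51. Il21r also lost its call when any of the 5 tumors was left out (edgeR adjusted p from 0.0549 to 0.178).

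In control tumors the fold changes were of the same sign for all 8 genes, and 4 had an unadjusted p under 0.05, against 13.1% of genes. Il2rb was at 23.1, 20.7 and 22.1 CPM on day 14 and at 4.85 and 7.99 CPM at EOS (log2 fold change of -1.77 ± 0.25, 3.41-fold lower, edgeR adjusted p of 0.0705). The difference is wide beside the spread of both groups. Il21r went from 10.7, 8.07 and 5.57 CPM to 2.63 and 3.28 CPM (-1.45 ± 0.33), Il2rg from 33.4, 23.4 and 23.9 CPM to 9.32 and 14.2 CPM (-1.19 ± 0.26), and Il4ra from 60.2, 55.8 and 35.1 CPM to 22.2 and 33.1 CPM (-0.86 ± 0.28), each with all EOS values under all day 14 values. No gene of the 8 passed in edgeR, where 0.104% of 19292 genes did, and DESeq2, which called 4.52% of genes, called Il2rb, Il2rg and Il21r (adjusted p of 3.812e-09, 0.00122 and 0.00195).

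In IL-27 tumors Il2rb was at 3.58 and 3.42 CPM at EOS, under the 3 day 14 values of 15.9, 4.07 and 7.49 CPM (log2 fold change of -1.38 ± 0.56, edgeR unadjusted p of 0.0419), and it was the only 1 of the 8 genes at that threshold, against 5.05% of genes. None passed the adjustment in edgeR or DESeq2 (0.0% of 19078 genes in edgeR and 0.571% in DESeq2), and all 8 log2 fold changes were under 0. In IL-27+cabo tumors 6 of the 8 were under 0, from -1.22 for Il7r to 0.20 for Il15ra, and none had an unadjusted p under 0.05, against 3.83% of genes, nor an adjusted one in edgeR or DESeq2 (0.0% of 19365 genes in edgeR and 1.7% in DESeq2). The median log2 fold change of the 8 genes was -0.92 in control, -0.74 in IL-27, -0.99 in cabo and -0.24 in IL-27+cabo tumors, beside medians over all genes between -0.04 and 0.01. Whether the change with time differs was tested for cabo against control alone, where no gene of the 8 had an unadjusted p under 0.05 in edgeR or DESeq2 (4.11% of genes did in edgeR, and 0.0788% of 21563 passed the adjustment, or 0.413% in DESeq2).

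**Figure D5:**
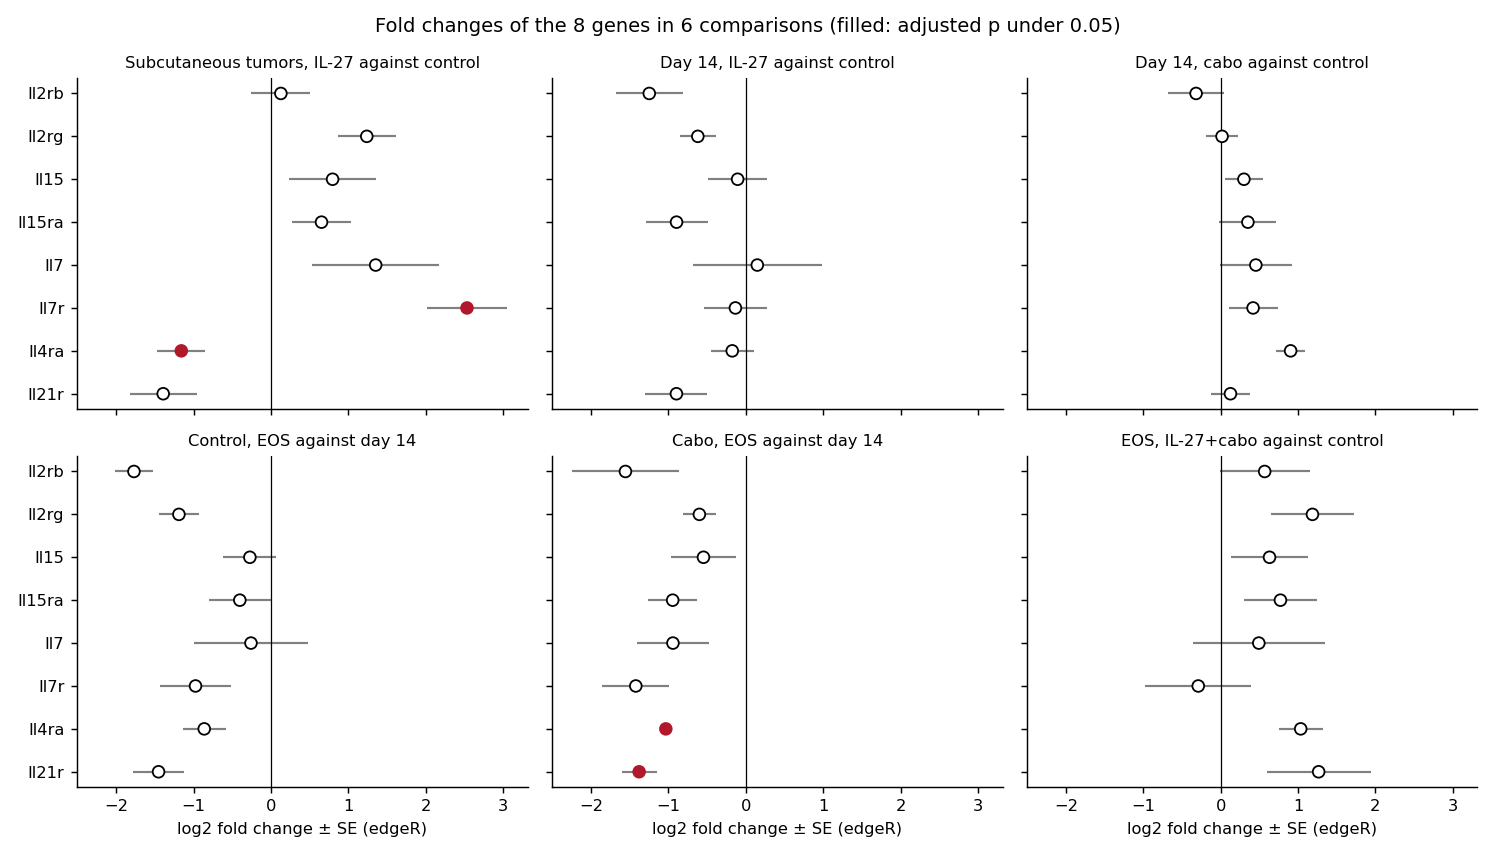
Log2 fold change with its SE (horizontal axis, edgeR) of the 8 genes in 6 comparisons, with filled points for an adjusted p under 0.05. The 4 filled points are Il7r and Il4ra in the SC tumors and Il4ra and Il21r in cabo tumors at EOS against day 14, and in both time comparisons all 8 points lie left of 0.

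The marker lists had these values over the same interval. The 8 leukocyte genes summed to 581 to 856 CPM in day 14 controls and 341 to 559 CPM at EOS, and to 696 to 779 CPM and 501 to 529 CPM in cabo tumors. The 12 T cell genes summed to 89.3 to 102 CPM and then 24.2 to 31.0 CPM in controls, where 4 of them fell, and to 37.8 to 49.1 CPM and then 20.2 to 28.9 CPM in cabo tumors, where 3 fell. The 9 macrophage genes summed to 559 to 1231 CPM and then 348 to 564 CPM in controls, which overlap narrowly, and to 855 to 1111 CPM and then 676 to 687 CPM in cabo tumors, with 5 lower at an unadjusted p under 0.05 in each and 1 called in cabo tumors. The 10 NK cell genes summed to 34.9 to 53.3 CPM and then 16.4 to 27.4 CPM in controls, 5 of them lower at that threshold, and to 13.9 to 64.2 CPM and then 10.3 to 34.0 CPM in cabo tumors, 1 of them lower. Endothelial genes went the other way in cabo tumors, where 6 of 8 rose, from a sum of 129 to 144 CPM to one of 272 to 328 CPM. Skeletal muscle genes summed to 1383 to 2122 CPM and then 188 to 1102 CPM in cabo tumors, 5 of 18 lower at an unadjusted p under 0.05, and neutrophil and marrow granule genes to 2.62 to 4.44 CPM and then 0.444 to 1.11 CPM, 5 of 7 tested lower at that threshold. No gene of either list passed the adjustment. Their part in the levels of the 8 genes was not tested.

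In cabo tumors, Il13ra1 of the further list also fell between day 14 and EOS (1.94-fold, edgeR adjusted p of 0.0109), as did 1 of the 6 transducers, Stat3 (1.58-fold). Of the 15 STAT5 and STAT6 response genes, 5 fell and none rose, against 2.09% of all genes called (219 of them downward). These were Socs3 (-0.72 on the log2 scale), the kinase Pim1 (-0.79), and the macrophage genes Chil3 (-2.29), Mrc1 (-0.88) and Ccl22 (-2.41). No gene of the 10 inducers of Il15 and Il15ra passed. All of these calls were lost in the fit of all 20 intratibial tumors together, in which 53 genes passed, with log2 fold changes of -0.98 for Il13ra1, -0.69 for Stat3, -0.74 for Socs3, -0.82 for Pim1, -2.32 for Chil3, -0.90 for Mrc1 and -2.44 for Ccl22. Of these genes, Chil3 alone kept its call with each tumor left out in turn, and the log2 fold change of Ccl22 then ran from -3.1 to -1.9.

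At EOS, Il4ra was again higher with cabo. It was at 22.2 and 33.1 CPM in controls, at 47.7 and 44.2 CPM with cabo and at 48.4 and 66.1 CPM with IL-27+cabo, without overlap with the controls. The log2 fold change was 0.73 ± 0.28 with cabo (edgeR unadjusted p of 0.0346) and 1.04 ± 0.28 with IL-27+cabo (0.00722). In each of these it was the only 1 of the 8 genes with an unadjusted p under 0.05, against 8.9% and 14.2% of 20026 genes, and 0.0% passed the adjustment. DESeq2 called it with IL-27+cabo (adjusted p of 0.0141) and called none of the 8 with cabo, against 4.68% and 1.35% of genes. Skeletal muscle genes summed to 49.2 to 90.2 CPM in EOS controls, 188 to 1102 CPM with cabo and 161 to 313 CPM with IL-27+cabo, and 17 and 16 of the 18 were higher at an unadjusted p under 0.05. Macrophage genes summed to 348 to 564 CPM, 676 to 687 CPM and 673 to 1182 CPM, and 2 of the 9 were higher at that threshold in each. Endothelial genes summed to 156 to 253 CPM, 272 to 328 CPM and 263 to 396 CPM, and 3 and 4 of the 8 were higher at it. Of the 12 T cell genes, 7 were lower at it with cabo, and 2 were lower and 1 higher with IL-27+cabo. With the muscle score as a covariate the log2 fold changes of Il4ra were 0.81 and 1.09. The muscle sums of both groups lie clear of the controls, so that fit cannot cleanly part muscle from treatment. The part of the macrophage, endothelial and T cell genes was not tested. Relative to Ptprc, Il4ra was at -0.09 to 0.01 in EOS controls, 0.24 to 0.76 with cabo and -0.17 to 0.54 with IL-27+cabo, and the last overlaps the controls. The 3 comparisons with EOS controls share those 2 tumors.

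With IL-27 alone at EOS, Il15ra was at 1.25 and 1.80 CPM, against 3.17 and 4.44 CPM in controls (log2 fold change of -1.33 ± 0.48, edgeR unadjusted p of 0.0254), 1 of 8 genes against 3.25% of all genes, and 0.0% passed the adjustment. No gene of the 8 passed with DESeq2, against 0.115% of genes. Il15ra was also low in the day 14 IL-27 tumors, at 1.94, 2.29 and 3.80 CPM against 7.21, 5.01 and 2.91 CPM in controls, but there the groups overlap. Within the EOS IL-27+cabo group the tumors of mice 16 and 28 stood apart for Il15ra, at 3.56 and 9.63 CPM, for Il21r, at 3.28 and 11.2 CPM, and for Il2rg, at 16.3 and 38.1 CPM, and their summed leukocyte genes were at 475 and 863 CPM.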

How the data were processed

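Per the labels and the methods of the study, poly(A) RNA of each tumor was sequenced in pairs with a strand-marking kit, and reads were mapped with HISAT2. The table the authors deposited holds raw counts, 1 row for each Ensembl gene. The counting program and annotation are not given in the sources used here, and the build listed with the samples is a human one although the identifiers are of mouse genes, so symbols and coordinates are from GENCODE M21 (GRCm38). Between 30.4% and 35.5% of values from 1 to 20 in each library were multiples of 4, so 1 read pair may stand for several counts.

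Tests used edgeR 4.0.16 under R 4.3.3 (filterByExpr, TMM, quasi-likelihood test, Benjamini-Hochberg adjustment over all genes tested, two-sided), with DESeq2 1.42.0 as an alternative. Each fit held only the groups compared, except that the EOS groups shared 1 fit, the interaction used all day 14 groups, and the comparison of changes with time used all intratibial tumors. CPM used effective library sizes, and log2 CPM a prior count of 2. GC and length offsets were splines with 5 degrees of freedom. The 8 genes, marker lists, comparisons and alternatives were chosen with earlier results of these data known. All 8 genes are named, with fold changes for each in the SC tumors and elsewhere for those with an unadjusted p under 0.05, and others by range or as chosen after their values were seen (Il15, Il2rb, Il15ra, Il21r, Cd3e). Genes of the pathway lists are named where the adjusted p was under 0.05, and 3 genes most like each member by r. The fits were tested on simulated data for 4 of the comparisons, where every recovered change had the right sign, edgeR missed most changed genes in the SC design and all in that of IL-27+cabo against control on day 14, and DESeq2 recovered more genes with more false calls in each. A gene that did not pass in edgeR is therefore not shown to be unchanged, and calls by DESeq2 alone are less certain. Some single markers of the line are not reported here.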

Additional observations from a re-analysis of the deposited data

Results flagged for a closer look

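Il2rg was flagged because its values with IL-27 moved in opposite directions in the SC and the day 14 intratibial tumors. In SC tumors both IL-27 tumors were above both controls (log2 fold change of 1.24), and on day 14 all 3 IL-27 tumors were below all 3 controls (-0.62). The difference was not tested, since the sites were normalized apart and taken at different times.

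Il2rb was flagged for IL-27+cabo against control. On day 14 all 3 IL-27+cabo tumors were at or below the lowest control (log2 fold change of -0.81), by a margin of less than 0.1 CPM for the tumor of mouse 22, and at EOS both IL-27+cabo tumors, at 8.44 and 10.8 CPM, were above both controls, at 4.85 and 7.99 CPM (0.57). That difference was not tested.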

How the results depend on the processing

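The count of the 8 genes with an adjusted p under 0.05 in the SC tumors was 2, and it became 4 with DESeq2, 1 with the RLE normalization, 1 with no filter, 3 with counts divided by 4 (Il2rg added, adjusted p of 0.0398), and 0 with GC and length offsets. The genes called overall were 3880 of 19360, and 6172, 3950, 2975 of 27455, 4488 of 16075 and 2076 in these settings. The replicate number of the SC tumors is only a number shared by tumors of the 2 groups (correlation of deviations of 0.0313 over 19360 genes), and with it as a replicate block the count was 1 (4248 of all genes), and 0 (2683 of all genes) with the replicate block and GC and length offsets together. Leaving out 1 SC tumor gave 0 to 2. Left-out tumors decided both calls, since neither Il7r nor Il4ra passed without control tumor 1, and Il4ra did not pass without either IL-27 tumor. For cabo against control on day 14 the count of 0 became 1 with DESeq2 and 0 to 1 with 1 tumor left out (1 without control mouse 7). For EOS against day 14 it went from 0 to 3 in control tumors with DESeq2, and in cabo tumors from 2 to 3 with DESeq2, to 1 with no filter, to 0 with all 20 intratibial tumors in one fit, to 0 with the muscle score as a covariate, and to 1 without any single tumor (1 to 1). For IL-27+cabo against control at EOS it went from 0 to 1 with DESeq2. Reversals were all in the SC tumors. Il4ra went to 0.46 with GC and length offsets and 0.46 with these and the replicate block, Stat5a to 0.74 and 0.73, and Socs3 to 0.35 and 0.37. Il7 went to -0.17 with the block and offsets together, and Il2rb to -0.060 without control tumor 1 and -0.052 without IL-27 tumor 2, in a range of -0.060 to 0.32 with 1 tumor left out. The cause was not tested. Of 327 values of single genes under alternatives other than leaving out a tumor, 256 kept direction and side of the threshold, 55 lost a call, 9 gained one and 7 reversed. Of 239 values with 1 tumor left out, 173 kept both, 63 lost a call, 1 gained one and 2 reversed.

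The DESeq2 and RLE scalings moved the median of all genes in the SC tumors to 0.11, and the offsets to -0.31 (-0.30 with the block). With groups of 2 or 3 tumors and values taken from bulk tissue, differences within the spread of single tumors were not detectable.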
